A study of Mus musculus with 22 samples.

Results

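At 10 weeks of age, ear RNA of mice labelled Socs3 cKO was compared with ear RNA of WT mice across all genes. The libraries were taken by their titles alone: 4 libraries labelled Socs3 cKO and 3 labelled WT, 7 of the 22 libraries of the series. All mice had a C57BL/6 background. In the cKO mice, deletion of Socs3 was driven by keratin 5, which is active in basal keratinocytes and in the cells that descend from them, so that fibroblasts, vessels and leukocytes of the ear would keep the gene. The WT mice are labelled only as wild type, and whether they carried the transgene or the floxed allele alone is not stated. The other libraries came from mice of 2 weeks (4 WT and 4 cKO) and 8 weeks (3 WT and 4 cKO). The labels name keratinocytes as the source and ear as the tissue, and the extraction used ear specimens. The libraries held whole-ear RNA: markers of fibroblasts (Col3a1, 692 FPKM or more in each of the 7), skeletal muscle (Mb, 88.8 FPKM or more) and cartilage (Acan, 11 FPKM or more) accompanied the basal keratinocyte markers Krt5 and Krt14, each at 1327 FPKM or more. The labels do not say whether replicates were separate animals. A limma p-value here sets a difference against the scatter of libraries within groups, pooled over all 22, and that scatter may be technical.

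SOCS3 is a feedback inhibitor of cytokine signalling. Cytokines of the interleukin 6 family bind receptors that share the gp130 chain, encoded by Il6st, and activate JAK kinases and the transcription factor STAT3, which in turn induces Socs3. The SOCS3 protein then binds gp130 and JAK and shuts the pathway down. In skin, STAT3 activity in keratinocytes is known for its part in wound healing and in psoriasis-like inflammation.

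Values are FPKM, fragment numbers scaled to transcript length and to library size, as the authors deposited them. A gene was tested if it reached 1 FPKM in at least 3 of the 22 libraries (14139 of 21110 genes). Changes are the limma estimate of the difference in log2(FPKM + 1), cKO minus WT. The pseudocount of 1 shrinks the change of low genes. A gene is called when its Benjamini-Hochberg adjusted p over all genes tested is under 0.05. Below, cKO always stands for the libraries labelled Socs3 cKO, and "higher" and "lower" mean in those libraries.

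The WT libraries of 10 weeks stood apart from the cKO libraries in general features. Of 1204 olfactory and vomeronasal receptor genes, 53.7%, 35.0% and 74.3% were above 0 in WT replicates 1, 2 and 3, against 4.49% to 7.31% in the cKO libraries. Those receptor values were low, at most 3.70 FPKM in any of the 7 libraries. Ribosomal protein genes took 21.5% to 28.9% of all FPKM in WT and 15.4% to 22% in cKO, and the middle value of the tested genes was 5.22 to 7.10 FPKM in WT and 7.32 to 8.54 FPKM in cKO. A relative depth was estimated from the most common ratio of very low FPKM values to those of WT replicate 1. It spanned 1.27-fold among the 7 libraries. The estimate rests on 119 to 179 genes and is not a count of reads. Eif2s3y, a gene of the Y chromosome, was at 0, 0 and 1.85 FPKM in WT and at 59.2, 60.9, 0.0129 and 0.036 FPKM in cKO, high in 2 cKO libraries only; with Eif2s3y as a covariate, 3489 genes were called in all, against 3577 without it. The part of these differences in the results below was not tested beyond the alternatives that are given.

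Socs3, the targeted gene, went against the label. Its FPKM was 2.76, 4.81 and 2.02 in the WT libraries and 36.5, 29.8, 47.7 and 32.4 in the libraries labelled cKO. Every cKO-labelled library was above every WT library, and the mean was 3.2 ± 1.45 (SD, n = 3) in WT against 36.6 ± 7.9 (SD, n = 4) in cKO. The change was 3.20 (SE 0.46, limma adjusted p = 4.39e-05), and 2.95 after median-of-ratios scaling. An exact two-sided permutation test over the 35 ways of dividing the libraries gave p = 0.0286, the smallest that 3 against 4 libraries allow. The deposited value sums over the whole gene and over all cells of the ear, and which exons were deleted is not given, so it does not show whether Socs3 was intact in keratinocytes. Fewer cells of a type and less RNA per cell cannot be told apart in such libraries. The groups are named below by their labels.

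The promoter of Socs3 is shown with those of Il6 and Cxcl1, which had the largest rises of a cytokine and of a chemokine. Each is the 250 bases before the start site in RefSeq (GRCm38.p6), 5′ to 3′ on the gene's strand. They lie at chr11:117969367-117969616 (minus strand), chr5:30012864-30013113 (plus strand) and chr5:90890995-90891244 (plus strand). Capitals mark matches, on either strand, to TTCNNNGAA (the STAT site), TGANTCA (AP-1) or a loose NF-kB motif (GGG, any 5 bases, CC); overlapping matches run together.
Socs3: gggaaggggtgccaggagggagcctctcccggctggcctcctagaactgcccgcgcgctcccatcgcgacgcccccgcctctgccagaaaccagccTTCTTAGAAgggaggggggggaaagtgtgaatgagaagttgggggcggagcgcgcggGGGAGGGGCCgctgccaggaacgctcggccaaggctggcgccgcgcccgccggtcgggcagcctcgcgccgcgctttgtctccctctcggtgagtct
Il6: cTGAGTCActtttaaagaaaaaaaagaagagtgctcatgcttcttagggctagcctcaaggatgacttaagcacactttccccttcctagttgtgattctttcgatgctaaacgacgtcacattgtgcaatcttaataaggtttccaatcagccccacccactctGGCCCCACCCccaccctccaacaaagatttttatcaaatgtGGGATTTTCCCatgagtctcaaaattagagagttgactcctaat
Cxcl1: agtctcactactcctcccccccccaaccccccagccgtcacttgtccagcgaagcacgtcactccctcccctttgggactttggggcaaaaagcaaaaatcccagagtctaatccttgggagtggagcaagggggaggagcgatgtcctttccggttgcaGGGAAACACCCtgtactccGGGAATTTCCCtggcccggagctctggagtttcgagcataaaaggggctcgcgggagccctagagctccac
Socs3 held the STAT match TTCTTAGAA at -154 from its start site. Of Socs3 and the 10 genes with the largest rises, 10 had a promoter entry, and Socs3 was the only one of them with a STAT match, against 7.02% of all 32851 promoters. AP-1 matches were present in Il6 and Tnfaip3, 2 of 10, against 6.75% of all promoters. The loose NF-kB letters were found in 8 of 10, and in 45.8% of all promoters. The CRE letters TGACGTCA were in 0 of 10 and in 1.55% of all promoters. A match is a run of letters and does not show binding.

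Over all genes, 3577 of 14139 (25.3%) were called: 2927 were higher (20.7%) and 650 lower (4.6%). The scaling of the libraries decided much of this balance. After median-of-ratios scaling, 2026 genes were higher (14.3%) and 1581 lower (11.2%), so that the higher genes made up 81.8% of the calls as deposited and 56.2% after scaling. The median change of all genes was 0.24 as deposited and 0.02 after scaling. Called under both were 2025 genes as higher (14.3%) and 649 as lower (4.59%), and 0 genes were called in opposite directions. The counts of the lists below are to be read against these shares of all genes, as deposited and after scaling. All 4 cKO libraries lay above all 3 WT libraries for 29.7% of the genes tested, and below them for 11.2%. With WT replicate 3 left out, 1503 genes were higher and 307 lower. A further fit kept WT replicate 2, with the smallest share of receptor genes above 0, as the only WT library. Its median change over all genes was 0.12. That fit assumes that the lone library varies like the other groups. With fewer libraries a call needs a larger change, so a call lost there does not show that the change is gone.

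**Figure D1:**
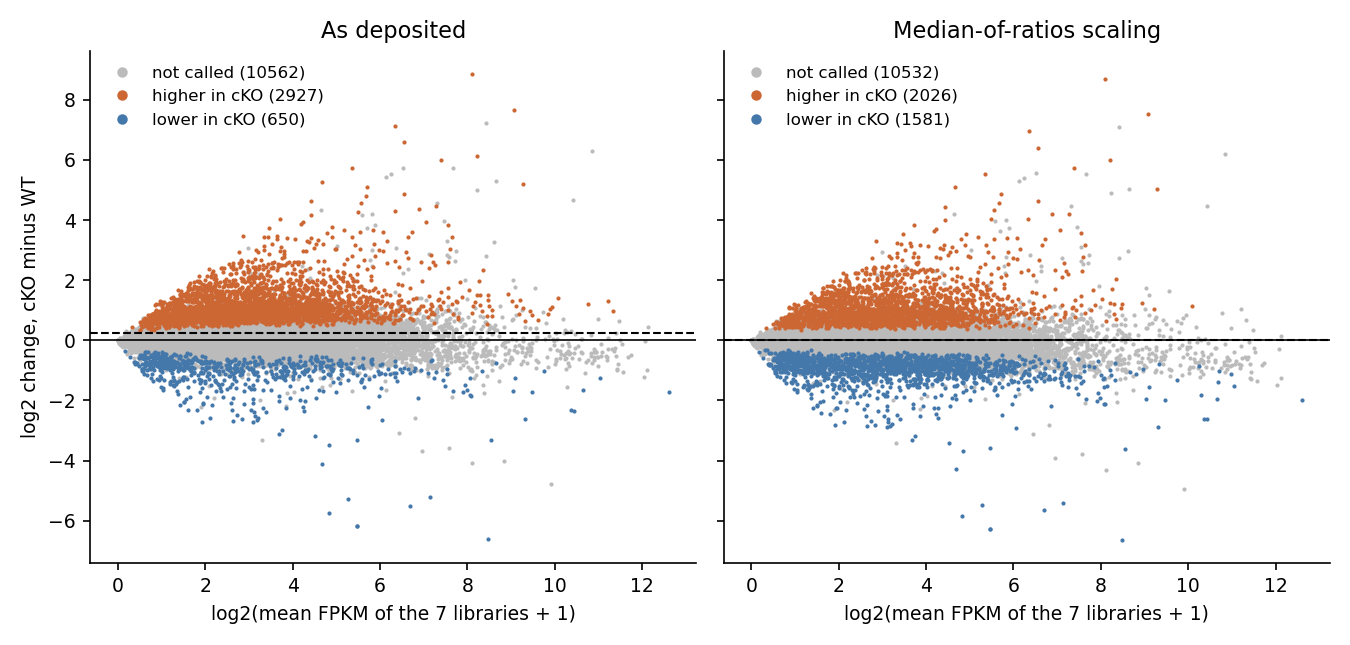
Change against level for the 14139 genes tested. The x axis is log2 of the mean FPKM of the 7 libraries plus 1, the y axis the log2 change of cKO minus WT, as deposited (left) and after median-of-ratios scaling (right); orange and blue points are called higher and lower, grey points are not called, and the dashed line is the median of all genes. The median sits at 0.24 on the left and at 0.02 on the right, and the lower calls increase from 650 to 1581.

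Cytokines of the gp130 family and related cytokines, taken as 1 list, showed some of the clearest differences at 10 weeks. Of 8 tested members of the list, 4 were higher and 1 lower (4 and 2 after scaling). Il6 was at 0.618, 0.0801 and 0.0696 FPKM in WT and at 43.7, 42.8, 82.2 and 109 FPKM in cKO. No WT library reached 1 FPKM and no cKO library was below 42.8 FPKM, and the change was 5.72 (SE 0.30, adjusted p = 4.17e-11). Il6 was below 1 FPKM on average in every other group of the series, with means of 0.0987 and 0.556 FPKM in WT and cKO at 2 weeks and 0.355 and 0.442 FPKM at 8 weeks. Osm, which encodes oncostatin M of the same family, was at 0.428, 0.332 and 0.433 FPKM in WT and at 2.81, 2.62, 3.58 and 3.54 FPKM in cKO (change 1.56, adjusted p = 4.21e-07). Clcf1, another gp130 ligand, rose from 1.15 to 1.70 FPKM in WT to 6.78 to 11.1 FPKM in cKO (change 2.01). Il10, which is in the list as a related cytokine and not as a gp130 ligand, rose by 1.11 on the log2 scale (1.26 to 3.42 FPKM in cKO, at most 0.334 FPKM in WT). Il11 went the other way, from 2.96, 4.02 and 5.36 FPKM in WT to 1.34, 0.982, 1.02 and 0.619 FPKM in cKO (change -1.35, adjusted p = 0.000297). Its means were 0.935 and 0.572 FPKM in WT and cKO at 2 weeks, and 4.63 and 0.601 FPKM at 8 weeks. Il11 was thus high only in the WT groups of 8 and 10 weeks, whose libraries had 35.0% or more of receptor genes above 0. The part of that receptor signal in the fall of Il11 was not tested. Lif was at 0.355 to 0.807 FPKM in WT and 0.783 to 1.28 FPKM in cKO, and did not pass (change 0.37, adjusted p = 0.116). Il22 was at most 0.0686 FPKM in any of the 7 libraries and was not tested.

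**Figure D2:**
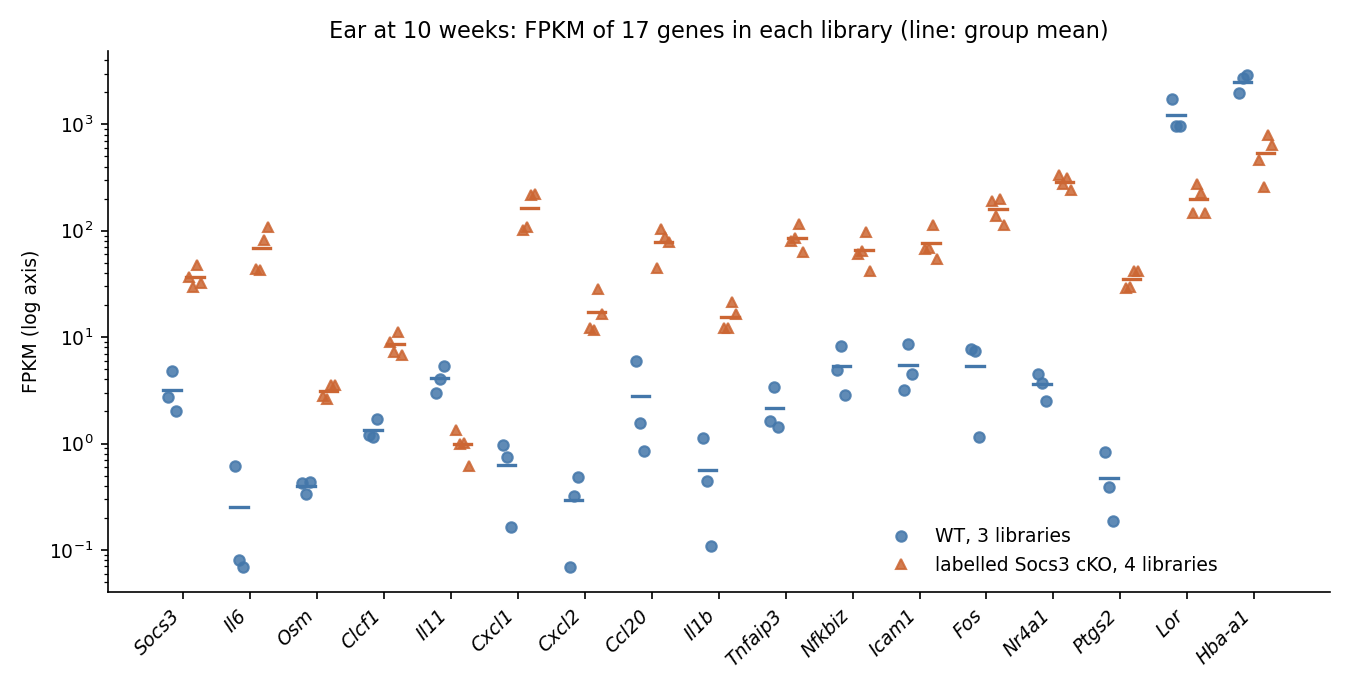
FPKM (log axis) of 17 genes in each 10-week library; circles are the 3 WT libraries, triangles the 4 libraries labelled Socs3 cKO, and lines the group means. The groups are separate for each gene shown: Il6 is at most 0.618 FPKM in WT and at least 42.8 FPKM in cKO, while Il11, Lor and Hba-a1 lie lower in cKO.

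Receptors, kinases and STATs of the pathway and related receptors rose in part. Of 23 tested members, 9 were higher and 1 lower, as deposited and after scaling, with a median change of 0.74. Il6ra, the receptor chain that binds interleukin 6, was at 1.47, 6.85 and 0.646 FPKM in WT and at 15.5, 19.9, 22.1 and 8.95 FPKM in cKO (change 2.40, SE 0.55, adjusted p = 0.00306). Osmr, the oncostatin M receptor chain, rose from 3.53 to 4.63 FPKM to 9.9 to 14.3 FPKM (change 1.31). Il22ra1, the receptor chain for interleukin 22, rose by 1.84, Jak1 by 1.06 and Jak2 by 1.12. Il6st itself rose by 1.20 (adjusted p = 0.0286), from 15 to 22.9 FPKM in WT to 31.4 to 51.7 FPKM in cKO; 5 of the 7 fits that left out 1 library lost that call (those without WT replicates 1 or 3, or without cKO replicates 1, 2 or 3). Stat3 was at 22.9, 25.4 and 18.4 FPKM in WT and at 43.7, 50.1, 60.3 and 32.2 FPKM in cKO. These groups did not overlap, yet the change of 1.01 (SE 0.38) did not pass, with an adjusted p of 0.0576. With WT replicate 2 as the only WT library, the changes were 1.1 for Il6ra, 1.17 for Osmr, 1.28 for Il22ra1 and 0.88 for Il6st. Jak1 and Jak2 were both at 0.69 in that fit.

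Other brakes on JAK signalling rose with Socs3. Of 15 tested members of the SOCS family and other inhibitors, with Socs3 not in the list, 8 were higher and 0 lower under both scalings, and the median change was 1.06. Cish, a SOCS family member induced by STAT5, was at 7.75, 7.74 and 3.7 FPKM in WT and at 22.7, 22.6, 31.6 and 21.9 FPKM in cKO (change 1.84, adjusted p = 0.00158). Socs4 rose by 1.62 and Socs2 by 1.16. Sh2b3, an adaptor that restrains JAK2, rose from 0.863 to 2.98 FPKM to 5.66 to 11.4 FPKM (change 2.06). Socs1, the closest relative of Socs3, was at 5.92 to 7.25 FPKM in WT and 6.33 to 13.5 FPKM in cKO and did not pass (change 0.33, adjusted p = 0.632). Left out in turn, the 7 libraries gave 5 to 8 calls. With WT replicate 2 as the only WT library, the changes were 1.54 for Cish, 1.12 for Socs4, 0.9 for Socs2 and 1.34 for Sh2b3.

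Genes known as STAT3 targets were higher as a group. Of 24 tested members, 16 were higher (66.7% against 20.7% of all genes) and 0 lower as deposited, with a median change of 1.67 against 0.24 over all genes. After scaling 16 were higher and 1 lower. Bcl3, a nuclear regulator of NF-kB, was at 1.49, 2.08 and 1.81 FPKM in WT and at 11.6, 11.6, 15.8 and 7.07 FPKM in cKO (change 2.12, adjusted p = 0.000262). Pim1, a survival kinase, rose by 2.53 and Cebpd, a transcription factor of the acute phase, by 2.72. Icam1, a leukocyte adhesion molecule, was at 3.17, 8.66 and 4.47 FPKM in WT and at 68, 68.3, 114 and 54.1 FPKM in cKO (change 3.62, adjusted p = 1.85e-06). Junb, an AP-1 subunit, rose by 3.44. The preset member Lrg1 did not pass (change 0.13, adjusted p = 0.859). It was at 8.92, 5.73 and 9.62 FPKM in WT and at 13.6, 9.63, 5.99 and 7.35 FPKM in cKO. The list included Tnfaip3, an inhibitor of NF-kB, which was at 1.63, 3.39 and 1.43 FPKM in WT and at 80, 86, 116 and 63.1 FPKM in cKO (change 4.81, SE 0.29). Without any 1 library, 14 to 17 members were called higher. With WT replicate 2 as the only WT library, the changes were 1.97 for Bcl3, 1.84 for Pim1 and 3.07 for Cebpd. In that fit Icam1 was at 2.94, Junb at 3.7 and Tnfaip3 at 4.28.

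Immediate-early genes, which cells switch on within minutes of growth factors, cytokines or stress, provided 3 of the 10 largest rises, Nr4a1, Fosb and Fos. Of 17 tested members, 12 were higher (70.6%) and 0 lower under both scalings, with a median change of 2.95. Nr4a1, a nuclear receptor, was at 4.54, 3.74 and 2.49 FPKM in WT and at 332, 272, 314 and 242 FPKM in cKO (change 6.00, SE 0.64, adjusted p = 1.12e-06). Fos was at 7.74, 7.34 and 1.14 FPKM in WT and at 190, 136, 197 and 113 FPKM in cKO (change 4.86). Both genes are separated by over 10-fold between the groups. Fosb rose by 5.10, and Fosl1, a further AP-1 subunit outside the list, rose from a mean of 0.078 ± 0.0964 FPKM (SD, n = 3) to 42.6 ± 14.8 FPKM (SD, n = 4; change 5.28). Atf3, a stress-induced transcription factor, rose by 4.27, Zfp36, which destabilises cytokine mRNAs, by 3.95, Egr1 by 3.44 and Jun by 2.30. At 2 weeks, Fos varied widely in cKO, at 39.7, 204, 228 and 8.38 FPKM (mean 120 FPKM). The WT libraries of that age were at 11.9 to 15.6 FPKM (mean 14.1 FPKM), above the lowest cKO library.

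Among chemokines that attract neutrophils and monocytes, Cxcl1, Cxcl2 and Cxcl5 rose from below 1 FPKM in every WT library, and Ccl2 and Ccl7 from 5.29 FPKM or more. Of 13 tested members, 8 were higher (6 after scaling) and 0 lower, with a median change of 0.75. Cxcl1, a ligand of the neutrophil receptor CXCR2, was at 0.97, 0.754 and 0.164 FPKM in WT and at 101, 109, 217 and 223 FPKM in cKO, the largest rise among the genes the naming rule admits (change 6.59, SE 0.43, adjusted p = 1.32e-09). Cxcl2, another such ligand, was at most 0.489 FPKM in WT and at 12.3, 11.6, 28.6 and 16.6 FPKM in cKO (change 3.75). The monocyte chemokines followed: Ccl2 was at 13.8, 5.29 and 8.98 FPKM in WT and at 63.2, 70.9, 110 and 131 FPKM in cKO (change 3.21). Ccl7 rose by 2.60 and Cxcl5 by 1.30. For each of these 5 genes, cKO replicates 3 and 4 held the higher values of the group; Cxcl5 was at 7.90 and 4.38 FPKM there, against 1.34 and 1.27 FPKM in replicates 1 and 2.

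Among chemokines of lymphocytes and dendritic cells, 5 of 17 tested members were higher and 0 lower, 29.4% against 20.7% of all genes. Ccl20, the ligand of CCR6 on dendritic cells and on T cells that make interleukin 17, was at 6, 1.56 and 0.843 FPKM in WT and at 44.6, 104, 87.2 and 78.2 FPKM in cKO (change 4.57, adjusted p = 3.61e-07). Cxcl10, an interferon-inducible chemokine, rose from at most 1.27 FPKM to 17.9, 14, 58.4 and 31.2 FPKM (change 3.93), and Ccl11, which attracts eosinophils, by 1.92. Outside all lists, Ptgs2 and Cyr61 were also among the 10 largest rises. Ptgs2, the inducible cyclooxygenase, was at 0.83, 0.394 and 0.187 FPKM in WT and at 28.7, 29.3, 41.5 and 42.1 FPKM in cKO (change 4.63, SE 0.25). Cyr61, a secreted matrix protein, rose from 7.78 to 12.5 FPKM to 197 to 340 FPKM (change 4.48).

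In the list of interleukins 17, 22 and 20 and their signalling, 4 of 10 tested members were higher (40% against 20.7% of all genes) and 1 lower. Il17a was at 0, 0 and 0.0635 FPKM in WT and at 0.69, 2.66, 1.31 and 1.98 FPKM in cKO, a low level at which the groups were still separate (change 1.32, adjusted p = 1.17e-05). Il24 was at most 0.133 FPKM in WT and at 1.66, 0.98, 5.75 and 2.53 FPKM in cKO (change 1.68). Nfkbiz, which encodes an NF-kB cofactor needed for responses of keratinocytes to interleukin 17, was at 4.96, 8.2 and 2.84 FPKM in WT and at 61, 65.1, 97.6 and 41.8 FPKM in cKO (change 3.44, adjusted p = 2.5e-07). Zc3h12a, a ribonuclease that limits inflammatory mRNAs, rose by 2.38. Il17d fell by 1.04 (adjusted p = 0.0405), a call that 5 of the 7 fits without 1 library lost (those without WT replicates 2 or 3, or without cKO replicates 1, 2 or 3). Il23a and Il17f were under 1 FPKM in all 7 libraries and were not tested.

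The interleukin 1 and 36 family had 8 of 16 tested members higher (6 after scaling) and 0 lower. Il1b was at 1.13, 0.441 and 0.109 FPKM in WT and at 12.1, 12.3, 21.3 and 16.6 FPKM in cKO (change 3.43, SE 0.25, adjusted p = 5.7e-09). Its receptor genes rose as well, Il1r1 by 1.57 and the shared chain Il1rap by 1.52. Il1rl2, the receptor of interleukin 36, was at 0.626, 2.35 and 0.422 FPKM in WT and at 17.4, 17.9, 23 and 11.9 FPKM in cKO (change 3.20). Of the interleukin 36 ligands, Il36b (listed as Il1f8) rose from 11.4, 4.83 and 1.68 FPKM to 29.3, 28.9, 45 and 38.8 FPKM (change 2.63). The other ligands did not pass: Il1f6 overlapped between the groups (change 0.93, adjusted p = 0.243), and Il1f9 was at 20.2 to 43.6 FPKM in WT and 16.2 to 36 FPKM in cKO (change -0.39, adjusted p = 0.447).

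Keratinocyte genes moved unevenly. Krt14 and Krt5, the keratins of the basal layer, did not pass (changes 0.64 and 0.69, adjusted p = 0.117 and 0.178). Neither did Trp63, a transcription factor of basal cells (change 0.70, adjusted p = 0.104). Of 12 tested basal markers, 5 were higher and 1 lower. The 5 are adhesion genes: Itga6, a hemidesmosome integrin, was at 3.61, 12.9 and 1.83 FPKM in WT and at 50.5, 59.2, 58.9 and 24.9 FPKM in cKO (change 3.05, adjusted p = 0.000134). Dst, a hemidesmosome plakin, rose by 1.77, the cadherin gene Cdh3 by 1.5 and the laminin chain Lama3 by 1.36; Lamb3, a further chain of that laminin, rose by 1.15. Cdh3 lost its call without WT replicate 1, WT replicate 3, cKO replicate 1 or cKO replicate 3. The member that fell was Krt15 (change -1.03).

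Among 23 tested markers of the spinous and granular layers, 8 were higher (34.8% against 20.7% of all genes) and 1 lower as deposited. After scaling 4 were higher and 1 lower, where 14.3% of all genes were higher. The member that fell was Lor, which encodes loricrin, the main protein of the cornified envelope. It was at 1741, 961 and 961 FPKM in WT and at 147, 272, 224 and 146 FPKM in cKO (change -2.62, SE 0.56, adjusted p = 0.00176), and the groups were apart. Dsc1, a desmosomal cadherin of upper layers, was at 8.6, 11.4 and 2.22 FPKM in WT and at 48.6, 68.7, 102 and 51 FPKM in cKO (change 3.17). Hrnr rose by 1.55 as deposited and did not pass after scaling (adjusted p = 0.0548). The defining Krt1 rose by 1.97 (adjusted p = 0.0252) with groups that overlapped, and the defining Krt10 did not pass (change -0.11, adjusted p = 0.912). Without WT replicate 3, 1 of the 8 calls was left. In the late cornified envelope list, 1 of 18 tested members was lower (5.56%, near the 4.6% of all genes) and 0 were higher. Lce1m was at 1202, 630 and 784 FPKM in WT and at 312, 308, 179 and 268 FPKM in cKO (change -1.68, adjusted p = 0.004).

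Genes of hyperproliferative and wounded epidermis had 9 of 20 tested members higher (6 after scaling) and 0 lower. Krt6a, a keratin of activated keratinocytes, was at 23.7, 37.7 and 13.6 FPKM in WT and at 112, 125, 576 and 111 FPKM in cKO (change 2.85, adjusted p = 0.000182). Krt16, its partner, rose by 2.33 and Krt6b by 3.6, both with the highest value in cKO replicate 3. The EGF receptor ligands rose too: Hbegf from 1.95 to 2.46 FPKM to 19.9 to 50.1 FPKM (change 3.30), Ereg by 2.96 and Areg by 1.72. Krt17 did not pass (148 to 227 FPKM in WT, 206 to 235 FPKM in cKO). Of 29 tested members of the cell cycle list, 0 were higher and 1, Tyms, was lower (change -1.92). The 0 depended on single libraries: 5 were higher without cKO replicate 1, 2 without WT replicate 1 and 1 without cKO replicate 4, and 5 with Eif2s3y as a covariate. The proliferation markers Mki67, Top2a and Ccnb1 did not pass, with changes of 0.61, 0.78 and 0.91 and adjusted p of 0.0885, 0.0565 and 0.0521. Tyms lay at 32.9, 34.4 and 50.8 FPKM in WT and at 8.62 to 10.3 FPKM in cKO.

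In the list of epidermal lipid and barrier enzymes, 10 of 22 tested members were higher (7 after scaling) and 0 lower. Abca12, the lipid transporter of lamellar granules, was at 2.58, 4.05 and 1.19 FPKM in WT and at 15.3, 21.8, 26.7 and 13.2 FPKM in cKO (change 2.52, adjusted p = 3.59e-06). Alox12b, a lipoxygenase of the barrier, rose by 1.51, and Elovl4, which elongates fatty acids of ceramides, from 111 to 220 FPKM to 342 to 509 FPKM (change 1.5). Without WT replicate 3, 3 of the 10 calls were left.

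Markers of antigen-presenting cells were among the lists with the most calls. Of 14 tested markers of dendritic and Langerhans cells, 10 were higher (71.4% against 20.7%) and 1 lower, and 8 and 1 after scaling. Cd207, which encodes langerin, the marker of Langerhans cells, was at 13.7, 9.82 and 8.89 FPKM in WT and at 44.9, 38.1, 29.4 and 47.1 FPKM in cKO (change 1.79, SE 0.26, adjusted p = 3.87e-05). Cd83, a marker of activated dendritic cells, rose from 1.68 to 2.81 FPKM to 16.4 to 29.7 FPKM (change 2.78). Itgax and Flt3, further defining markers, rose by 1.03 and 1.34, and the class II gene H2-Eb1 by 1.20. The summed level of the list was 897 to 1081 FPKM in WT and 1727 to 2711 FPKM in cKO.

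Of 18 tested markers of monocytes and macrophages, 11 were higher (7 after scaling) and 0 lower. Cd14, a receptor of bacterial products, was at 6.9, 3.94 and 5.03 FPKM in WT and at 22.3, 21.4, 26 and 38 FPKM in cKO (change 2.14, adjusted p = 6.94e-07). Csf1r, the receptor that maintains macrophages, was at 21.1 to 23.6 FPKM in WT and 49.5 to 53.9 FPKM in cKO (change 1.19). Cd68 rose by 1.24 and Adgre1, the gene of F4/80 (listed as Emr1), by 1.33. With WT replicate 2 as the only WT library, the changes were 2.46 for Cd14, 1.22 for Csf1r, 1.22 for Cd68 and 1.36 for Adgre1.

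Other leukocyte lists had few calls. The neutrophil marker Csf3r was at 1.54, 1.56 and 1.91 FPKM in WT and at 1.47, 1.16, 2.72 and 0.676 FPKM in cKO (change -0.15, adjusted p = 0.651). Elane was at 0 in all cKO libraries, and Ngp at 0 in 3 of them. Both were named after their values were seen, and these zeros alone show no difference from WT. The median change of the tested neutrophil markers was 0.43, against 0.24 over all genes. Their list summed to 21.3 to 189 FPKM in WT and 59.9 to 1007 FPKM in cKO, with the 1007 FPKM in replicate 3. Cxcr2, the receptor of Cxcl1 and Cxcl2, was at 4.8, 5.74 and 6.55 FPKM in WT and at 2.39, 2.63, 5.2 and 1.4 FPKM in cKO. It did not pass as deposited (change -0.86, adjusted p = 0.0688) and was lower after scaling (change -1.07, adjusted p = 0.0091). The WT means of Cxcr2 were 1.04, 7.3 and 5.7 FPKM at 2, 8 and 10 weeks, highest in the WT groups with many receptor genes above 0. The 1 call of 10 tested neutrophil markers as deposited was Stfa1, a stefin gene, at 594 FPKM in cKO replicate 3 and 14 to 29.9 FPKM in the other cKO libraries, and it was lost after scaling and without WT replicates 2 or 3 or cKO replicate 3. Higher calls in this list numbered 3 without WT replicate 1 or cKO replicate 2, and 2 without cKO replicate 1. Among 15 T and NK cell markers, 3 were higher (20%, near the 20.7% of all genes) and 1 lower. Cd4 rose from 1.15 to 2.14 FPKM to 3.52 to 4.36 FPKM (change 0.96), and Cd8b1 fell from 0.955 to 1.99 FPKM to 0.36 to 0.687 FPKM (change -0.73). The WT means of Cd8b1 were 0.488, 1.57 and 1.62 FPKM at 2, 8 and 10 weeks. The part of the receptor signal in the differences of Cxcr2 and Cd8b1 was not tested. Of 4 tested B cell markers, 1 was lower, Cd79a, which did not exceed 1.40 FPKM. Ms4a2, a chain of the IgE receptor, was the 1 of 10 mast cell and basophil markers called (change 1.92), and neither of the 2 tested eosinophil markers was called.

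**Figure D3:**
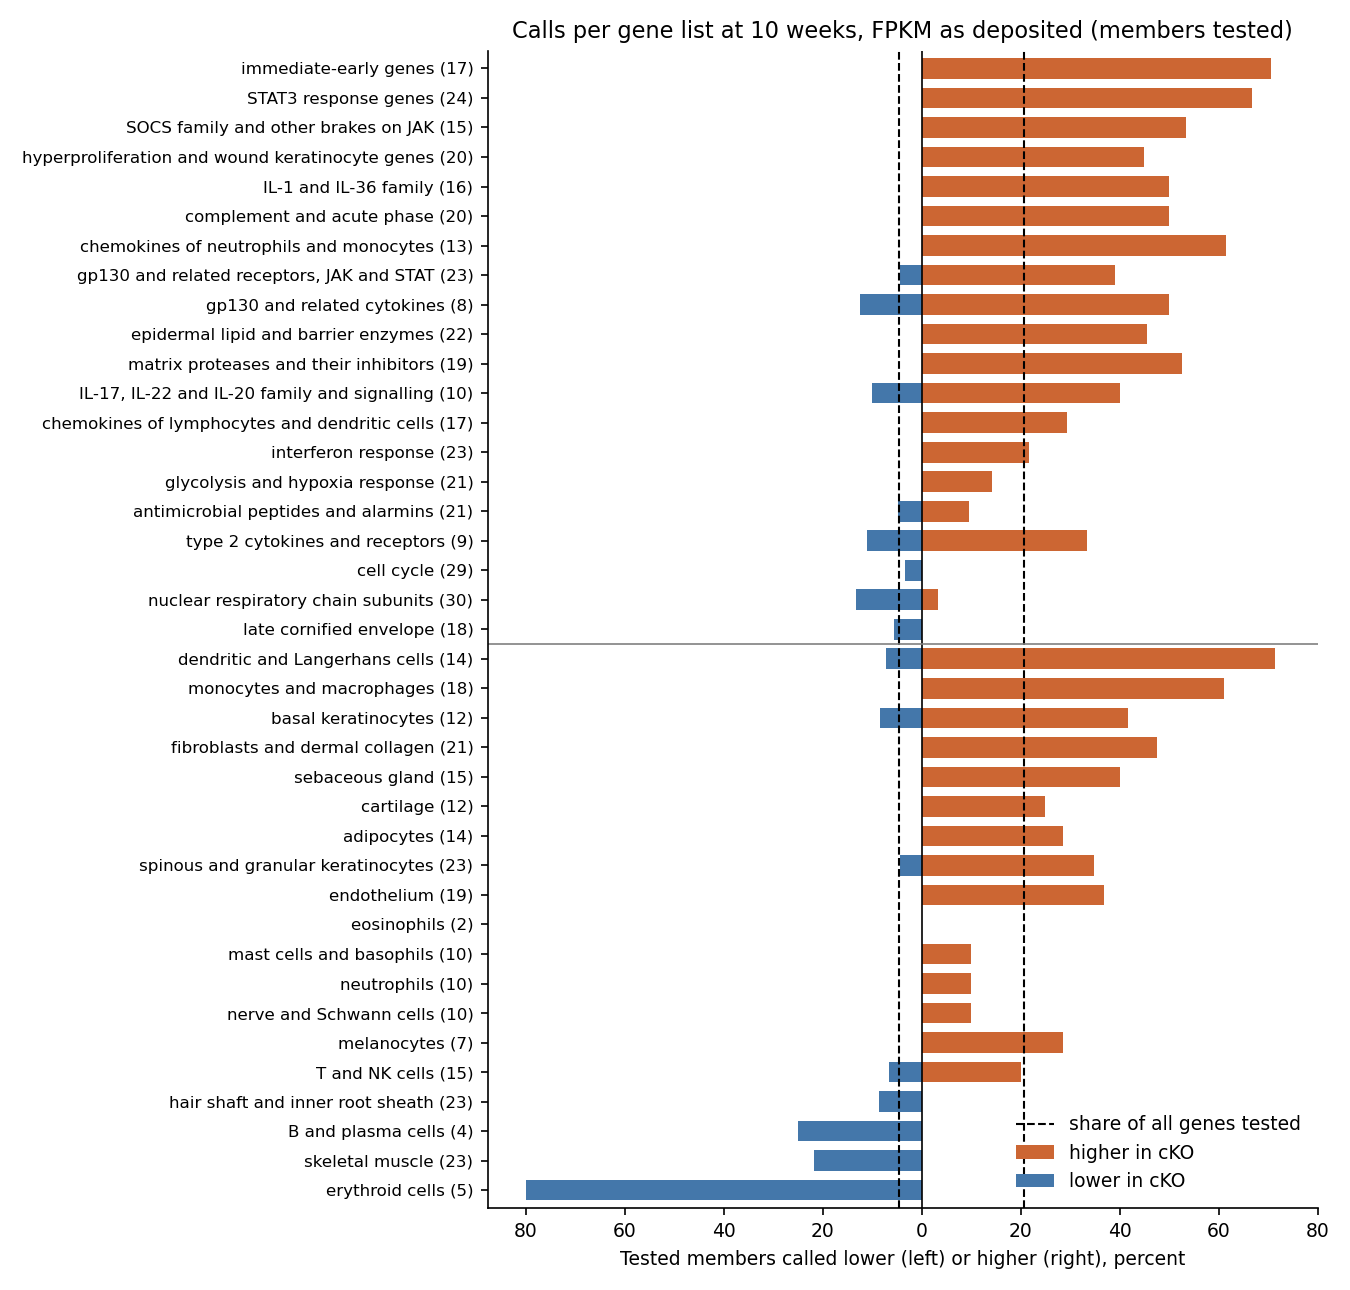
Percent of tested members called higher (orange, right) or lower (blue, left) in each of the 39 gene lists, FPKM as deposited; pathway lists stand above the grey line and cell type lists below it, each ordered by its median change, with the number tested in parentheses. Dashed lines mark all genes tested, 20.7% higher and 4.6% lower; immediate-early genes, STAT3 response genes and dendritic cell markers reach 66.7% or more, and erythroid markers reach 80% on the lower side.

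Vessels, dermis and glands were represented as follows. Of 19 tested endothelial markers, 7 were higher (36.8% against 20.7% of all genes) and 0 lower as deposited. After scaling 5 were higher and 2 lower, where 14.3% of all genes were higher and 11.2% lower. Pecam1 was at 9.76, 7.8 and 6.58 FPKM in WT and at 21.4, 16.5, 19.2 and 25.7 FPKM in cKO (change 1.26, adjusted p = 0.000519). Sele and Selp, the selectins of activated vessels, rose by 1.32 and 1.30, both from below 1 FPKM. The defining Cdh5 passed as deposited only (change 1.02, adjusted p = 0.0546 after scaling), and the defining Vwf did not pass (change 0.37, adjusted p = 0.361). Of 21 fibroblast and collagen markers, 10 were higher as deposited (47.6% against 20.7% of all genes), and 2 were higher without WT replicate 3. After scaling 3 of the 21 were higher, near the 14.3% of all genes. Pdgfra, a fibroblast receptor, rose from 7.1 to 11.4 FPKM to 21.6 to 23.6 FPKM (change 1.26) and Col5a2 by 1.49. Col3a1 rose by 1.19 as deposited only (adjusted p = 0.0776 after scaling). The defining Col1a1 (change 0.69, adjusted p = 0.447) and Col1a2 (change 0.20, adjusted p = 0.724) did not pass. In the sebaceous list 6 of 15 were higher (40% against 20.7% of all genes, and 3 after scaling). Scd3, a fatty acid desaturase, was at 2.88, 5.09 and 1.89 FPKM in WT and at 35.1, 26.8, 13.7 and 18.1 FPKM in cKO (change 2.5). Far2 rose by 2.68 and the defining Mc5r by 1.23. The defining Scd1 was at 867 to 1081 FPKM in WT and at 958 to 1260 FPKM in cKO. It did not pass (change 0.23, adjusted p = 0.697). Adipocyte markers had 4 of 14 higher (28.6% against 20.7% of all genes), with Cfd up by 1.75, Car3 by 1.6 and Lep by 1.48. The defining markers Adipoq (change 0.97, adjusted p = 0.0841) and Plin1 (change 0.86, adjusted p = 0.273) did not pass. Among 12 cartilage markers, 3 were higher (25%); the defining Col2a1 (change 1.26, adjusted p = 0.115) and Acan (change 0.99, adjusted p = 0.286) were not among them, and Chad rose from 35.5 to 57.9 FPKM to 138 to 254 FPKM (change 1.97). In the nerve list, Cdh19 of Schwann cells was the 1 of 10 called (change 1.85), 10% against 20.7% of all genes. Melanocyte markers had 2 of 7 higher as deposited (28.6%) and 0 after scaling. The glycolysis and hypoxia list had 3 of 21 higher (14.3%, below the 20.7% of all genes).

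Several of the counts in these lists depended on single libraries. Among lists with 2 or more calls, fits that left out 1 library moved the following by more than 1.5 times, beside those given with their lists. Without WT replicate 3, higher calls numbered 5 in place of 8 for the JAK brakes, 3 in place of 5 for basal markers, 3 in place of 6 for sebaceous markers and 6 in place of 10 for matrix genes, 3 in place of 5 for interferon genes and 1 in place of 2 for antimicrobial genes, and lower calls 3 in place of 5 for muscle and 0 in place of 4 for respiratory genes. Without WT replicate 1, they numbered 2 in place of 10 for fibroblasts, 6 in place of 10 for matrix genes, 3 in place of 5 for interferon genes, and 0 in place of 4 lower respiratory genes. Without cKO replicate 3, they numbered 3 in place of 8 for spinous and granular markers, 3 in place of 5 for basal markers, 6 in place of 10 for both fibroblasts and matrix genes, and 2 in place of 4 lower respiratory genes. Basal markers numbered 3 without cKO replicate 1, and fibroblast markers 5 and 4 without cKO replicates 1 and 4. Sebaceous markers numbered 3 without cKO replicate 2, and spinous and granular markers 5 without WT replicate 2. Lower respiratory genes numbered 1 without cKO replicate 1 or 2. Melanocyte markers numbered 0 in place of 2 in 5 fits, those without WT replicates 1 or 3 or without cKO replicates 1, 2 or 4. T and NK markers numbered 5 without WT replicate 2, and cartilage markers 5 without cKO replicate 2. In the list of gp130 and related cytokines, the calls stayed at 4 higher and 1 lower in each of these fits. With WT replicate 2 as the only WT library, they were also 4 and 1, while 6 of 12 immediate-early genes, 6 of 10 dendritic cell markers, 5 of 10 complement genes and 0 of 10 fibroblast markers were called higher.

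Complement and matrix genes rose in part. Of 20 tested complement and acute phase genes, 10 were higher (9 after scaling) and 0 lower. Cfb, a factor of the alternative pathway, was at 11.9, 15.6 and 11.4 FPKM in WT and at 43.3, 39.3, 47.3 and 58.4 FPKM in cKO (change 1.78, adjusted p = 9.42e-06). Ptx3 rose by 2.36 and C3 by 1.96; C3 lost its call without WT replicate 1 or 3. Of 19 matrix proteases and inhibitors, 10 were higher (6 after scaling). Adamts4 rose by 2.48 and Plaur, the urokinase receptor, by 1.71. In the type 2 list 3 of 9 were higher (33.3% against 20.7% of all genes) and 1 lower. The lower gene was Retnla, a resistin-like gene of alternatively activated macrophages. It fell by 2.03, a call lost without WT replicates 1 or 2 or without cKO replicates 2 or 3.

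Lists with more lower than higher calls included those of red cells, muscle and respiration; the late cornified envelope, hair, B cell and cell cycle lists had 1 or 2 lower calls and 0 higher. Of 5 tested erythroid markers, 4 were lower under both scalings. Hba-a1, an alpha globin, was at 1958, 2730 and 2885 FPKM in WT and at 457, 255, 791 and 633 FPKM in cKO (change -2.34, SE 0.51, adjusted p = 0.00196). Hba-a2, a near-identical copy whose reads may be split arbitrarily, gave -2.33, and Hbb-b1 gave -1.72. Alas2, which makes haem in red cell precursors, fell by 1.04, a call lost without WT replicates 2 or 3 or without cKO replicates 1 or 2. Of 23 skeletal muscle markers, 5 were lower (21.7% against 4.6% of all genes, and 9 after scaling) and 0 higher, with a median change of -0.80. None of the defining markers passed. Acta1 changed by -0.90 (adjusted p = 0.218), Ckm by -1.09 (adjusted p = 0.134) and Myh4 by 0.48 (adjusted p = 0.589). Tnnc2, a troponin of fast fibres, was at 357, 433 and 599 FPKM in WT and at 159, 126, 97.7 and 125 FPKM in cKO (change -1.85). Tcap fell by 1.93, Tnni2 by 1.83 and Mb, the gene of myoglobin, by 1.66. Of 30 nuclear subunits of the respiratory chain, 4 were lower and 1 higher as deposited, 8 and 0 after scaling, and 0 lower without WT replicate 3. Cox5a (change -1.14) and Ndufa5 (change -1.11) each lost their call in several of the fits without 1 library. In the hair list, 2 of 23 were lower: Gata3, a regulator of the inner root sheath that T cells also use, from 36.4 to 48.9 FPKM to 6.58 to 17.7 FPKM (change -1.69), and Msx2 (change -0.82, adjusted p = 0.0401), whose call was lost without any 1 WT library and without cKO replicates 3 or 4.

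Of the 10 largest falls, 9 had their lowest WT mean at 2 weeks, where the receptor gene share was low, and higher means at 8 and 10 weeks: Hba-a1, Hba-a2, Lars2 and the 6 genes that follow. Lor did not, with WT means of 663, 236 and 1221 FPKM at 2, 8 and 10 weeks. Hba-a1 was also high in cKO, at means of 1835 and 1380 FPKM at 2 and 8 weeks. At most 5.98% of receptor genes were above 0 in those cKO libraries. Its WT mean at 2 weeks was 176 FPKM. Lars2 was at 105, 216 and 9669 FPKM in the WT libraries of 8 weeks, so its high mean there rested on replicate 3. Zfp488, a zinc finger gene, was at 70.8, 78.4 and 121 FPKM in WT and at 8.64, 9.91, 8.8 and 5 FPKM in cKO (change -3.32, SE 0.30, adjusted p = 2.02e-07). Grk1, the kinase of rhodopsin in the retina, was at 8.33, 9.41 and 15.6 FPKM in WT and at most 1.06 FPKM in cKO (change -2.67). The WT libraries of 2 weeks, with 3.32% to 5.15% of receptor genes above 0, had Zfp488 at a mean of 6.87 FPKM and Grk1 at 0.689 FPKM. The WT libraries of 8 weeks, with 50.5% to 73.0% above 0, had them at 140 and 16.7 FPKM. Speer8-ps1 (change -2.72), Gimap1 (change -2.40), Dub1 (change -2.33) and Nkx2-1, a lung and thyroid regulator (change -2.33), followed that pattern of group means, with 8-week WT means of 13, 15.7, 6.43 and 4.72 FPKM. Within the WT group of 10 weeks, replicate 3 had the highest value of each of these 6 genes and the highest receptor share. The order did not hold throughout: replicate 2, with the lowest share, exceeded replicate 1 for Zfp488, Grk1, Dub1 and Nkx2-1, and at 8 weeks replicate 3 (56.4%) had less Zfp488 (89.1 FPKM) than replicate 1 (50.5%, 130 FPKM). Lars2, a mitochondrial tRNA ligase gene, was at 1190, 904 and 256 FPKM in WT and at 56.2 to 75.7 FPKM in cKO (change -3.33, adjusted p = 0.0131), and its call was lost without WT replicate 1. The part of the receptor signal in these falls was not tested.

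**Figure D4:**
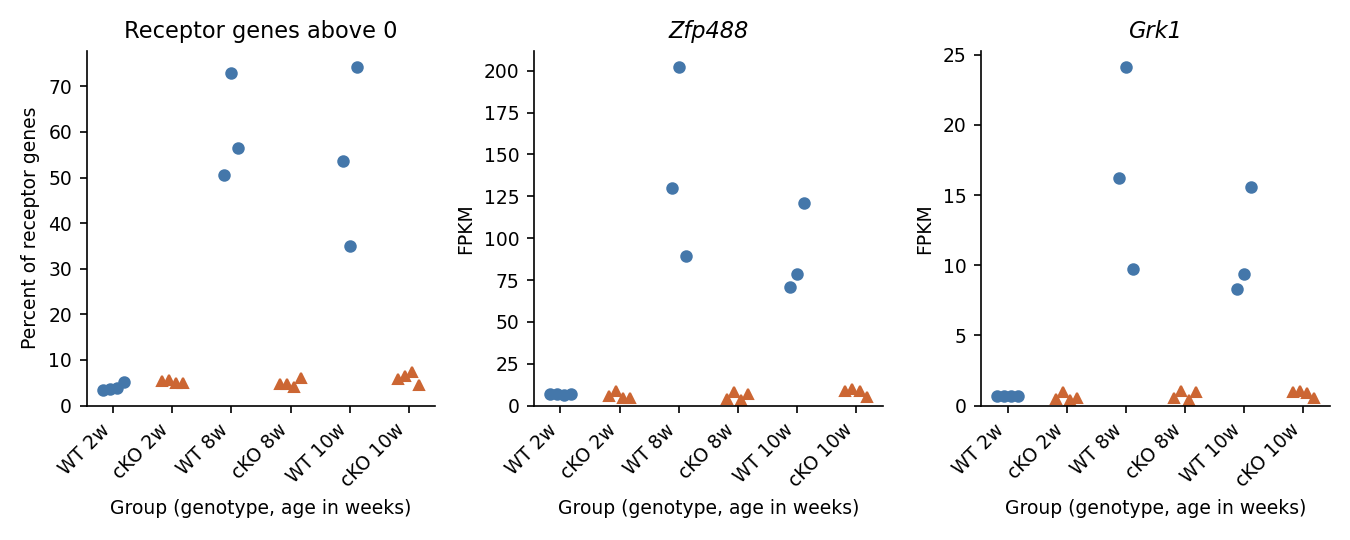
Share of 1204 olfactory and vomeronasal receptor genes above 0 (left, percent) and FPKM of Zfp488 and Grk1 (middle and right) in the 22 libraries by group; circles are WT and triangles cKO libraries, 1 point a library. WT libraries of 8 and 10 weeks lie at 35.0% or more on the left and are the high libraries for both genes, while the WT libraries of 2 weeks and all cKO libraries are low in each plot.

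A single cKO library differed from the others in alarmins, keratins and interferon-induced genes. S100a8, an alarmin of neutrophils and activated keratinocytes, was at 11.9, 31.6 and 5.88 FPKM in WT and at 7.42, 13.4, 838 and 16.5 FPKM in cKO. Its partner S100a9 was at 425 FPKM in cKO replicate 3 and 5.13 to 18.6 FPKM in the other 3. Neither passed (changes 1.35 and 0.72, adjusted p = 0.345 and 0.599), and both changes turned negative without that library (-0.15 and -0.56). Krt6b was at 632 FPKM there and 28.3 to 31.9 FPKM in the other cKO libraries, against 2.64 to 7.14 FPKM in WT. It was called with and without that library. With WT replicate 2 as the only WT library, its change was 3.02 in place of 3.6. Isg15, a ubiquitin-like protein induced by interferon, was at 51.2 FPKM in cKO replicate 3 and 3.95 to 6.22 FPKM in the others, Irf7 at 23.6 FPKM against 2.83 to 3.02 FPKM, and Ifit1 at 12.4 FPKM against 1.20 to 3.88 FPKM. Of 23 tested interferon response genes, 5 were higher (21.7% against 20.7% of all genes), 3 after scaling and 3 without cKO replicate 3. Irf1, Ifit2 and Gbp2 were called in every fit without 1 library. Irf1, a transcription factor that other cytokines also induce, was at 6.88, 8.39 and 8.39 FPKM in WT and at 65.3, 61.9, 95.6 and 70.2 FPKM in cKO (change 3.05, adjusted p = 8.59e-08). Ifit2 rose by 1.17 and Gbp2 by 1.46. Antimicrobial peptides and alarmins as a list had 2 of 21 tested members higher and 1 lower, below the shares of all genes on the higher side.

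**Figure D5:**
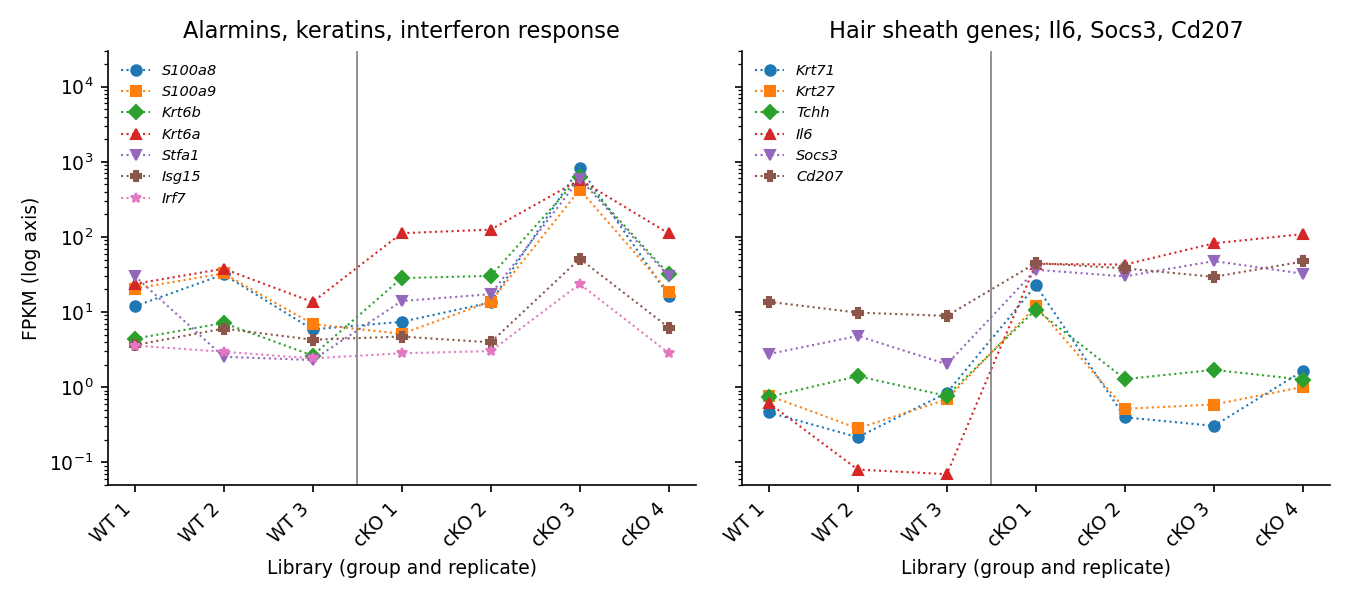
FPKM (log axis) in the 7 libraries of 10 weeks, 1 line a gene; the grey line divides WT from cKO. On the left, S100a8, S100a9, Krt6b, Stfa1, Isg15 and Irf7 peak in cKO replicate 3 (838 FPKM for S100a8); on the right, the hair sheath genes Krt71, Krt27 and Tchh peak in cKO replicate 1 (22.7 FPKM for Krt71), while Il6, Socs3 and Cd207 are high in all 4 cKO libraries.

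Another cKO library stood apart for genes of the growing hair. Krt71, an inner root sheath keratin, was at 22.7 FPKM in cKO replicate 1 and 0.306 to 1.65 FPKM in the other 3, against 0.216 to 0.842 FPKM in WT (change 1.14, adjusted p = 0.392). Krt27 and Tchh were likewise at 12 and 10.8 FPKM in that library and at most 1.01 and 1.70 FPKM in the other cKO libraries. Cd207, Il6 and Socs3 did not single out either library.

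Whether the genotype difference at 10 weeks was other than at 2 weeks was tested as the difference between both differences, with separate WT libraries at each age. Of all genes, 5403 (38.2%) passed. The receptor signal above marks the WT libraries of 10 weeks and not those of 2 weeks, so it moves with this comparison too. Socs3 was at a mean of 10.2 FPKM (SD 0.299) in WT and 6.67 FPKM (SD 5.22, from 1.25 to 12.6 FPKM) in cKO at 2 weeks. Its difference grew by 4.06 (SE 0.63, adjusted p = 0.000106). The largest rises and falls were picked by their change at 10 weeks, which enters this test, so their passing was favoured in advance. The 5 largest rises all grew: Nr4a1 by 6.52, Il6 by 5.30, Cxcl1 by 5.22, Fosl1 by 5.20 and Fosb by 3.79. Nr4a1 was at means of 16.6 and 14.5 FPKM in WT and cKO at 2 weeks, and at 3.35 and 28.3 FPKM at 8 weeks, an age that this test does not include. Of the 5 largest falls, Zfp488 (-3.07), Speer8-ps1 (-2.79) and Grk1 (-2.57) passed. Lars2 (-2.63, adjusted p = 0.109) and Lor (-1.62, adjusted p = 0.0969) did not pass as deposited, and Lor did after scaling (adjusted p = 0.0299).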

How the data were processed

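RNA of 22 ear libraries was sequenced on a HiSeq as single-end reads from TruSeq libraries, per the labels' protocols. The deposited files hold 1 FPKM value per gene and library, made by the authors; TopHat2 2.1.0, Cufflinks and the mouse build mm9 are named in the submitters' processing notes, while the Cufflinks version and the gene annotation used were not given in the sources used here. No read counts were used, so sequencing depth is unknown and no counting interval is given. Strand handling is not given either, so overlapping genes cannot be told apart.

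Values were taken as log2(FPKM + 1) for the genes that reached 1 FPKM in 3 or more libraries. The fit used limma 3.58.1 in R 4.3.3; its eBayes step let the prior variance follow the mean level. All 22 libraries entered in 6 groups of genotype and age, which share 1 estimate of the spread. The contrasts were cKO minus WT at 10 weeks, and that difference minus the one at 2 weeks. P-values were adjusted by the Benjamini-Hochberg method over all genes tested, with a threshold of 0.05, and every adjusted p printed comes from this limma fit. The same fit was run after median-of-ratios scaling. The exact permutation test was also run in R. Python 3.11.15 with pandas 2.3.3 was used for lists and figures. The procedure was tested on simulated data.

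Named genes are Socs3, the 10 largest rises and falls among genes called under both scalings whose groups do not overlap (unnamed models, small RNA, receptor and ribosomal genes left out, at most 3 per symbol stem), and, from each of 39 lists with 719 entries (708 in the files, 632 tested), preset markers and up to 4 further called members. Eif2s3y, Krt15, Lamb3, Elane and Ngp were named outside this rule, after their values were seen. The comparison, the lists and the rules were chosen with earlier results of these data known. Alternatives were other scalings, pseudocounts, filters, thresholds and weights, the 10-week libraries alone, Eif2s3y as a covariate, a replicate block and each library left out; 2 were added after seeing the data, WT replicate 2 as the only WT library and small RNA genes left out. Promoter sequences came from RefSeq on GRCm38.p6, and no coordinates of the authors' build were used.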

Additional observations from a re-analysis of the deposited data

Results flagged for a closer look

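Among 153 genes checked, 11 had a cKO library at 10 weeks whose distance from the nearest of the other 3, as a share of the range, was past Dixon's critical value; chance gives about 1 in 20. Replicate 3 was the highest in 7 of them: Cish (31.6 FPKM), Krt6a (576 FPKM), Krt6b (632 FPKM), Krt16 (1134 FPKM), S100a8 (838 FPKM), Isg15 (51.2 FPKM) and Irf7 (23.6 FPKM). Replicate 1 was the highest for the hair sheath genes Krt27 (12 FPKM) and Tchh (10.8 FPKM). Replicate 4 was the highest for Il10 (3.42 FPKM) and the lowest for Cdh3 (8.54 FPKM). Groups of 3 libraries, such as WT at 10 weeks, were not checked.

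The genotype difference at 10 weeks differed from that at 2 weeks, by the limma test of the difference itself, in 9 of the 11 genes examined. Of all genes, 38.2% passed. The genes examined were Socs3 and the 5 largest rises and 5 largest falls at 10 weeks. Those rises and falls were picked by 10-week values that enter this test, so a high count was favoured in advance. It was larger by 4.06 (log2 scale) for Socs3, 5.22 for Cxcl1, 6.52 for Nr4a1, 5.3 for Il6, 5.2 for Fosl1 and 3.79 for Fosb. It was more negative for Zfp488 (-3.07), Speer8-ps1 (-2.79) and Grk1 (-2.57), the genes that were high in the WT libraries with many receptor genes above 0.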

How the results depend on the processing

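The 2927 higher and 650 lower calls at 10 weeks, and the 5403 for 10 against 2 weeks, varied with the processing. Median-of-ratios scaling gave 1581 lower. Testing all genes without a filter gave 2404 lower, a filter at 5 FPKM 385 lower, and the 10-week libraries alone 1265 lower. An absolute log2 change of at least 1 left 1485 higher and 275 lower. Array quality weights gave 5960 higher, 2475 lower and 9993 between ages. WT replicate 2 as the only WT library gave 358 higher, 124 lower and 1173 between ages. Leaving out 1 library gave 1503 (without WT replicate 3) to 3109 (without WT replicate 2) higher, 307 to 654 lower, and 3863 (without WT replicate 3) to 5726 (without cKO replicate 4) between ages. The cause of these shifts was not tested.

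The change of Socs3 lay between 2.67 and 3.54 in every alternative run. The 10 largest rises were called in all alternatives except with WT replicate 2 alone, which lost Fosb; of the 10 largest falls, Lars2 was lost without WT replicate 1, 6 were called with WT replicate 2 alone, and 9 were tested at 5 FPKM. Signs turned for 6 genes that were not called: Csf3r ranged from -0.36 to 0.02 over the fits without 1 library, Irf7 from -0.02 to 0.87, S100a8 from -0.15 to 2.06 and S100a9 from -0.56 to 1.48. S100a9 was at -0.19 and Il1f9 at 0.05 with WT replicate 2 alone, and Il1f6 was at -0.17 with array quality weights.

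The residuals of WT and cKO libraries that share a replicate number correlated at -0.25, 0.05 and -0.17. These values come from few libraries and do not settle whether the numbers pair the libraries. With the number as a replicate block, 3086 genes were higher, 752 lower and 5861 differed between ages.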

Other observations

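Several genes outside the lists, picked after their values were seen, also rose. Has1, a hyaluronan synthase, was at 0.161, 0.45 and 0.423 FPKM in WT and at 17.6, 18, 26.4 and 21.9 FPKM in cKO (change 4.02, SE 0.19, limma adjusted p = 1.04e-11). Tnfaip6, whose product binds hyaluronan in inflamed tissue, was at 5.83, 7.55 and 4.51 FPKM in WT and at 128, 112, 178 and 124 FPKM in cKO (change 4.29, adjusted p = 1.28e-09). Both genes were separate between the groups. Of the relatives of Nr4a1, Nr4a2 was at 1.03, 1.08 and 0.632 FPKM in WT and at 36, 35.8, 34.1 and 11.4 FPKM in cKO (change 3.87), and Nr4a3 was listed at 0 in the 3 WT libraries and at 12.5, 14.4, 12.1 and 4.66 FPKM in cKO. Of 139 tested small RNA genes, 9 were higher and 15 lower, with a median change of 0. Over all genes tested, 20.7% were higher and 4.6% lower, with a median change of 0.24.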
